A study of Mus musculus with 13 samples.

Results

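The 10 mouse genes described here are the 2 REV-ERB genes Nr1d1 and Nr1d2 and 8 genes that belong to the circadian clock or are tied to it: Arntl, Clock, Per1, Per2, Cry1, Cry2, Dbp and Bcl6. They were chosen by name out of 21883 protein-coding genes. For each gene the window was the annotated gene body plus 20 kb on each side in mm10, and every H3K27ac, NCoR and SMRT peak touching that window was counted in 12 peak lists. Window lengths ran from 45.1 kb for Dbp to 175.7 kb for Arntl. Windows can hold peaks of neighbouring genes, which are named where they occur.

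The molecular clock is a feedback loop in which BMAL1, the product of Arntl, and CLOCK activate E-box genes, among them Per and Cry, whose proteins then inhibit the activators. The same pair activates Nr1d1 and Nr1d2, whose products REV-ERBα and REV-ERBβ bind AGGTCA-type elements and repress Arntl by recruiting NCoR with the deacetylase HDAC3. BCL6 is a zinc-finger repressor that binds both NCoR and SMRT, and DBP is a leucine-zipper activator that carries clock output through D-box elements.

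Chromatin immunoprecipitation with sequencing was done on 3 kinds of cell. Embryonic stem cells (ESCs) of strain C57BL/6J, kept with LIF, CHIR99021 and PD0325901, gave lists for NCoR, SMRT and H3K27ac, an acetylation of active promoters and enhancers. Mouse embryonic fibroblasts (MEFs) of strain C57BL/6J-OG2 gave a list for H3K27ac. MEFs of the same strain that received OCT4, SOX2, KLF4 and c-MYC (OSKM) gave H3K27ac lists at days 5, 9 and 13 with a FLAG plasmid as control or with HDAC3-YF, which encodes HDAC3 lacking its deacetylase activity, and NCoR and SMRT lists at day 9. The labels call the OSKM cells transfected while the protocol describes viral transduction, and the day 9 co-repressor cultures are labelled OSKM alone, with neither plasmid. The labels used here give no hour of harvest and no synchronisation, both of which set the phase of a clock. Each of the 12 lists came from 1 library, the only one of its group, so no value below has a replicate error and no difference between conditions was tested. The cultures were bulk, so fewer cells carrying a mark and less of the mark per cell cannot be told apart.

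The H3K27ac lists held 14251 to 26591 peaks and the co-repressor lists 3687 to 5179. The 6 ESC marker genes had 47 H3K27ac peaks in the ESC list, 1 in the MEF list and 2 to 3 in the OSKM lists. The 6 fibroblast markers had 36 peaks in MEFs, 2 in ESCs and 4 to 16 in the OSKM lists. Markers of endothelial cells, macrophages and epidermis, 3 genes each, had between 0 and 9 peaks per list, and the macrophage and endothelial sets were highest in MEFs, at 9 each. All intervals were 200 bp wide, and within each chromosome of an H3K27ac list every start fell on a fixed 50 bp step, so positions of that mark are known to that step. Read depths are not stated by the sources used here, and a gene without a listed peak is not thereby shown to lack the mark or the factor.

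The promoter sequences that the results below turn on are shown first, because the co-repressor and H3K27ac peaks lie on or beside them. Each is the 250 bases before a RefSeq start (GRCm38.p6, the coordinates of mm10), written 5′ to 3′ on the strand of the gene, with capitals marking a match to one of the searched motifs. The Nr1d1 promoter (chr11:98775378-98775627, minus strand) is overlapped by H3K27ac in 6 lists, the exceptions being ESCs and HDAC3-YF at day 9, and by no co-repressor peak. The Nr1d2 promoter (chr14:18239107-18239356, minus strand) carries AGGTCA, the core of a REV-ERB or ROR element, inside a day 9 NCoR peak. The Arntl promoter (chr7:113207261-113207510, plus strand) leads into the day 9 site for both co-repressors. The Clock promoter (chr5:76304793-76305042, minus strand) is overlapped by all 4 co-repressor lists. The Cry1 promoter (chr10:85185055-85185304, minus strand) carries the E-box CACGTG and is overlapped by H3K27ac in all 8 lists.
Nr1d1: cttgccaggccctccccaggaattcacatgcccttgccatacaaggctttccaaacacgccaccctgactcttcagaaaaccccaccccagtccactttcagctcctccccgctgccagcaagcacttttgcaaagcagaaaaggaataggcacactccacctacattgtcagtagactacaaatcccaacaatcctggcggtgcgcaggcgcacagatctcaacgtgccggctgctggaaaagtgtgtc
Nr1d2: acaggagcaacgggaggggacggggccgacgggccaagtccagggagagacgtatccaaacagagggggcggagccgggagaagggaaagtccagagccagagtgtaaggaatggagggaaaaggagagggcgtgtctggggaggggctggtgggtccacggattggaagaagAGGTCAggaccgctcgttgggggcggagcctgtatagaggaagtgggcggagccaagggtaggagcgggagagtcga
Arntl: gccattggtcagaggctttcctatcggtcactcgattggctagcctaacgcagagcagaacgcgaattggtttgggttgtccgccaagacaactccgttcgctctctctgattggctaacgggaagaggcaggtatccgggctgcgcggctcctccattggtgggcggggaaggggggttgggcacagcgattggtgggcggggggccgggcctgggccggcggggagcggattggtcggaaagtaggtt
Clock: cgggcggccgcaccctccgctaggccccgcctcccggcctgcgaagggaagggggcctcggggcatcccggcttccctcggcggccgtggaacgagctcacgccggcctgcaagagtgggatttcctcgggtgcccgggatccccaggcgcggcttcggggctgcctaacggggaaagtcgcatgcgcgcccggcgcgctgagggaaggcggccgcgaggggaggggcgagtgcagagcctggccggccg
Cry1: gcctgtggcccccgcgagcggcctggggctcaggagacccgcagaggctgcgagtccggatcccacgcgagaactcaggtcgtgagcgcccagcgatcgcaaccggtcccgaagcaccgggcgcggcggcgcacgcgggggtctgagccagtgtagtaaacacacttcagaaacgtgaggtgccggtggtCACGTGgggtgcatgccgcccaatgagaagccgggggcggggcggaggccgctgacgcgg
The AGGTCA of Arntl lies just past its start, in the 30 bases chr7:113207530-113207559 on the plus strand, and ends 22 bp before the day 9 site begins.
Arntl, 30 bases: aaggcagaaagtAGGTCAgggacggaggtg

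Motifs were searched on both strands from 250 bases before to 50 after each start, in 14 windows of 9 members. CACGTG was present in 3 members, Per1, Cry1 and Bcl6, against 7.15% of all 32851 promoter windows in the table. AGGTCA was present in 4 members, Nr1d2, Arntl, Clock and Per1, against 16.3% of the windows. The D-box letters TTATGTAA and TTACGTAA, against 1.06% of windows, and the cAMP response element TGACGTCA, against 1.79%, were in none of these member windows. A match describes letters and is not a site, and members with several starts had several windows to match in. The AGGTCA of Clock belongs to its most downstream start and lies under no peak, whereas that of Nr1d2, at -77 bp from its start, lies under the day 9 NCoR peak. H3K27ac peaks covered the AGGTCA of Arntl in 6 of the 8 lists, all except the FLAG lists of days 9 and 13.

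All 10 members had at least 1 H3K27ac peak in each of the 8 lists, against 68.8% of the 16774 genes with a peak in any list. This and the later shares of genes are not matched for window length or number of peaks. Summed over the members the ESC list held 38 H3K27ac peaks and the MEF list 38. OSKM cultures gave 29, 30 and 27 in the FLAG arm at days 5, 9 and 13 and 36, 32 and 21 in the HDAC3-YF arm. Arntl had the most over the 8 lists, 52, then Per1 with 45, Nr1d1 with 32, Per2 and Dbp with 25 each, Cry2 with 22, Clock with 17, Cry1 with 13, and Nr1d2 and Bcl6 with 10 each. Per length of window the order was different. Per1 had 1.03 peaks per 10 kb in the mean list, Nr1d1 0.843 and Dbp 0.693, while Arntl, at 0.370, lay beside Per2 at 0.375 and Cry2 at 0.390, and Bcl6, Cry1, Nr1d2 and Clock lay between 0.157 and 0.196. With 20 kb flanks the 2 REV-ERB genes were thus far apart, with Nr1d1 near the top and Nr1d2 near the bottom by either count. Many of the Nr1d1 peaks lay in the flanks, some of them inside the neighbouring gene Thra. With 5 kb flanks Nr1d1 had 1 to 3 H3K27ac peaks per list and Nr1d2 1 or 2. Counting only the higher-scoring 50% of each list, Nr1d1 had 0 to 2 and Nr1d2 1 in every list.

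**Figure D1:**
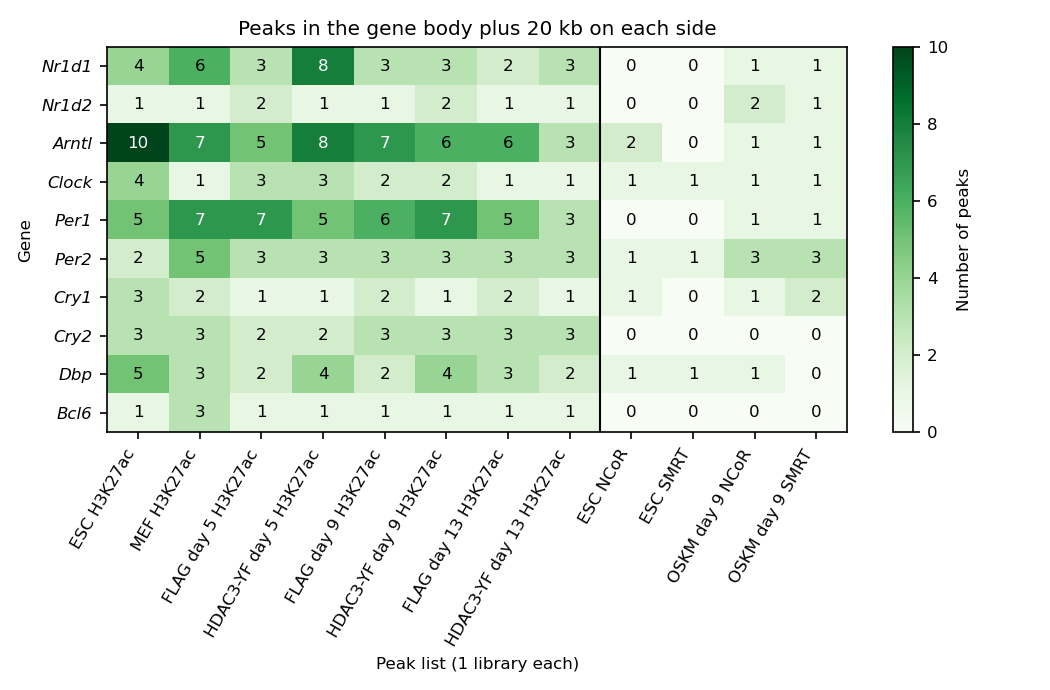
Number of peaks in the window of each member (rows) in each of the 12 lists (columns), written in each cell and shown by its shade. Arntl and Per1 hold the most H3K27ac peaks, Nr1d2 and Bcl6 1 to 3 per list, and Cry2 and Bcl6 have no co-repressor peak in any list.

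ESCs had more H3K27ac peaks than MEFs at 4 members, Arntl, Clock, Cry1 and Dbp, against 36.2% of all genes with a peak. They had fewer at 4, Nr1d1, Per1, Per2 and Bcl6, against 29.7%, and the same number at 2, Nr1d2 and Cry2, against 34.1%. The median difference over members was 0, as it was over all genes. Against MEFs, the FLAG arm had fewer peaks at 7 members at day 5 (43.3% of genes), 5 at day 9 (40.9%) and 5 at day 13 (43.3%). It had more at 2 members at day 5 (10.2%), 1 at day 9 (11%) and 0 at day 13 (10.9%), and as many at 1 (46.4%), 4 (48.1%) and 5 (45.9%). The MEF list is the longest of the 8. With each list cut to its 14251 highest-scoring peaks, FLAG had fewer peaks than MEFs at 3 members and more at 4 at day 5, and fewer at 3 and more at 3 at day 13.

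An H3K27ac peak lay within 1 kb of an annotated start in all 8 lists at 8 of the 9 members with a start in the promoter table, against 36.5% of 17491 genes. Dbp was the exception. Its gene body peaks were centred 1407 to 2697 bp downstream of the start. The start peaks of Nr1d2 had the ceiling score of 200 in all 8 lists, those of Bcl6 in 7, and those of Clock in 6, with 118 in both day 13 lists. The score is the authors' own value per peak on a scale that is not stated, with a ceiling of 200, and it ranks peaks only inside its list. The ceiling was reached by 24.4% of ESC peaks and 25.9% of MEF peaks. At day 13 the ceiling was rare, reached by 1.67% of FLAG peaks and 2.11% of HDAC3-YF peaks, and Nr1d2 was among those in both arms.

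**Figure D2:**
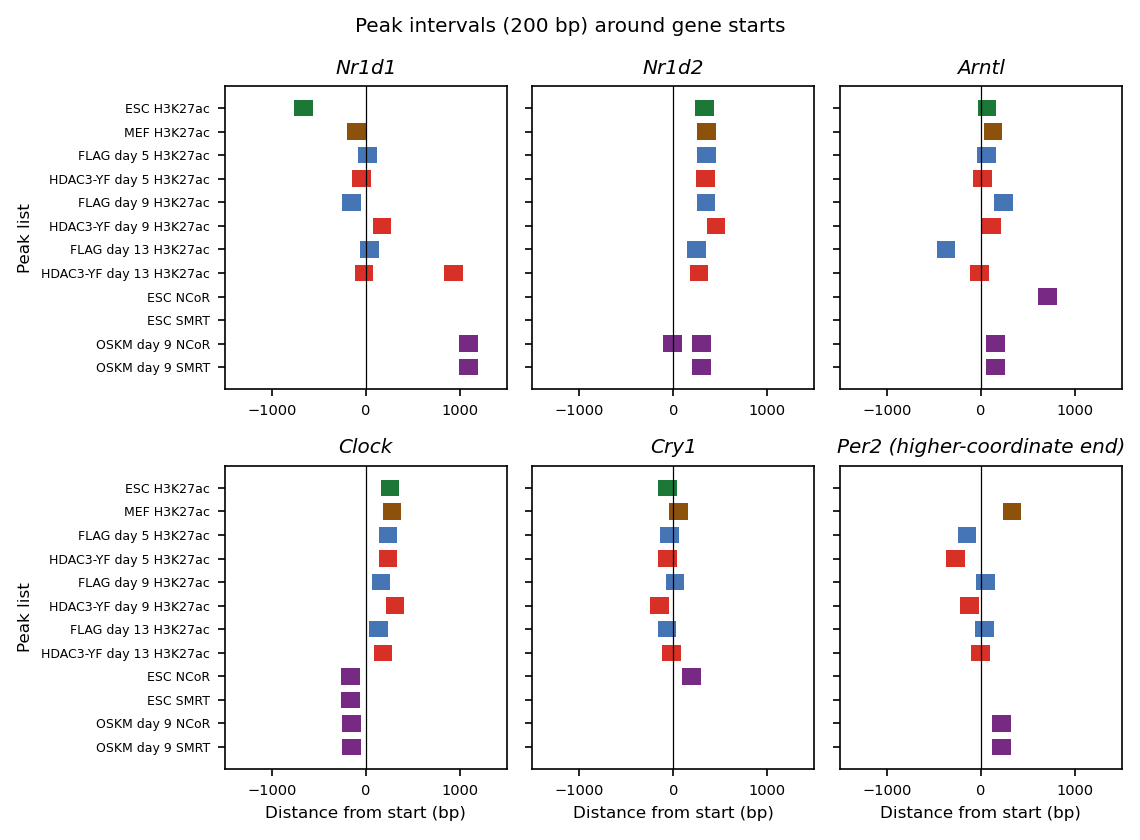
Intervals of H3K27ac, NCoR and SMRT peaks near the start, by distance from it in base pairs (horizontal, negative upstream), 1 line per list. Panels show Nr1d1, Nr1d2, Arntl, Clock and Cry1, and Per2 by distance from its higher-coordinate end. Clock has co-repressor peaks of ESCs and of day 9 at 1 position, Nr1d2 has them at day 9 alone, and Per2 lacks an ESC H3K27ac peak there.

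Nr1d1, which encodes REV-ERBα (chr11:98767932-98775377, minus strand), had 4 H3K27ac peaks in ESCs, 6 in MEFs, 3, 3 and 2 in the FLAG arm at days 5, 9 and 13, and 8, 3 and 3 in the HDAC3-YF arm. HDAC3-YF at day 5 stood above the other 7 lists. At the start, the MEF peak had the ceiling score and the ESC peak 54.1. The FLAG arm had 126, 92.8 and 42.4 there and the HDAC3-YF arm 139, 109 and 7.31. Within its list the HDAC3-YF day 13 peak was low, with 8.43% of peaks below it, while 80.0% of the FLAG list lay below the FLAG day 13 peak. At days 5 and 9 the shares below the start peak were 81.6% and 78.1% in FLAG and 86.1% and 80.3% in HDAC3-YF. The ESC peak was centred at -665 bp, and the nearest start peak of each other list lay between -155 and 174 bp.

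A region upstream of Nr1d1 (chr11:98783091-98783473, centred at -7905 bp) held a peak in MEFs and in 5 of the 6 OSKM lists, and in neither ESCs nor HDAC3-YF at day 13. Its score was 200 in MEFs, 48.6, 52.1 and 21.1 in the FLAG arm and 67.9 and 59.4 in the HDAC3-YF arm at days 5 and 9. The share of the list below it was 74.1% in MEFs, 63.5%, 67.3% and 60.5% in FLAG and 74.3% and 69.1% in HDAC3-YF. The MEF share is the largest that list allows, because 25.9% of its peaks tie at the ceiling, so it is not comparable with the others. Most of the Nr1d1 peaks of HDAC3-YF at day 5 had low scores. Of its 8 peaks, the start and the upstream region had 139 and 67.9, and the other 6 had scores of 6.9 to 12.8, with 1.73% to 32.3% of the list below them. Of these 6, 5 lay in the body of Thra, the thyroid hormone receptor gene that overlaps the window on the downstream side, and 1 lay at -11048 bp. The 6 fell in 4 merged regions, each of which held a peak in at least 1 other list, so none of these regions was listed in HDAC3-YF at day 5 alone.

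**Figure D3:**
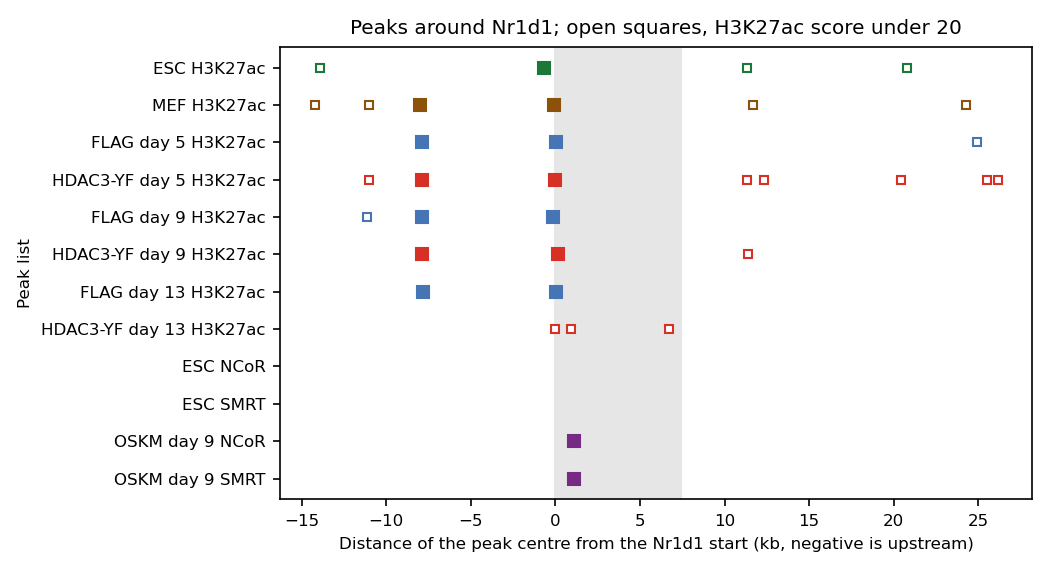
H3K27ac, NCoR and SMRT peaks in the window of Nr1d1 by distance of the peak centre from the Nr1d1 start in kb, 1 line per list. Open squares mark H3K27ac peaks of a score under 20, and grey marks the gene body. HDAC3-YF at day 5 has 8 peaks, 6 of them open, and the day 9 NCoR and SMRT lists hold the same interval, with the same score, in the gene body.

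Nr1d2, which encodes REV-ERBβ (chr14:18204056-18239106, minus strand), had 1 H3K27ac peak in 6 of the 8 lists and 2 in the others, FLAG at day 5 and HDAC3-YF at day 9. The peak shared by all 8 was centred 248 to 455 bp downstream of the start. The second peaks lay 5050 and 5405 bp downstream, with scores of 9.85 and 8.73. They fell in 1 merged region, so the arms differ there only in the day at which it was listed.

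Arntl (chr7:113178471-113314126, plus strand), the gene of BMAL1, had 10 H3K27ac peaks in ESCs, 7 in MEFs, 5, 7 and 6 in the FLAG arm and 8, 6 and 3 in the HDAC3-YF arm. Its peaks merged into 19 regions, of which 3 were in all 8 lists, 6 in ESCs alone, 3 in MEFs alone and 5 in OSKM lists alone. The 6 ESC regions lay from -9838 to 112416 bp of the start, and 5 of them were in the gene body. One of the shared regions, chr7:113260691-113261124, 53396 bp downstream of the start, had the ceiling score in ESCs and 11.2 in MEFs, where 21.6% of the list was lower. The other shared region, chr7:113185445-113186341, upstream of this start, had 9.13 in ESCs, where 15.1% of the list was lower, and 106 in MEFs, where 66.0% was lower. The 2 cell types thus ranked these Arntl regions in opposite order within their lists. In the FLAG arm the upstream region had 82.5, 78.6 and 30.5 and the downstream region 12.9, 27.9 and 33.2, and in the HDAC3-YF arm they had 139, 108 and 15.7 against 37.6, 23.9 and 16.6. The upstream region scored higher in both arms at days 5 and 9 and lower at day 13. The 3 peaks left at Arntl in HDAC3-YF at day 13 were those of the 3 shared regions, with scores of 15.5 to 16.6.

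Clock (chr5:76209868-76305603, minus strand) encodes the partner of BMAL1. It had 4 H3K27ac peaks in ESCs, 1 in MEFs, 3, 2 and 1 in the FLAG arm and the same 3, 2 and 1 in the HDAC3-YF arm. Beyond the start, a region in Pdcl2 on its upstream side (chr5:76321331-76321956) was listed in ESCs with a score of 124 and at days 5 and 9 in both arms, with 38.8 and 12.3 in FLAG and 21.4 and 10.7 in HDAC3-YF. It was not listed in MEFs or at day 13.

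Per1 and Per2 encode inhibitors of the activator pair. Per1 (chr11:69095108-69109965, plus strand) had 5 H3K27ac peaks in ESCs, 7 in MEFs, 7, 6 and 5 in the FLAG arm and 5, 7 and 3 in the HDAC3-YF arm. Its start peak scored 8.62 in ESCs, where 12.7% of the list was lower, and 200 in MEFs. In ESCs the highest peak of the window, at 200, lay at the end of the neighbour Vamp2. Regions at or in Vamp2, Hes7 and Aloxe3 made up 4 of the 7 regions of the Per1 window.

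Per2 (chr1:91415977-91459351) had 2 H3K27ac peaks in ESCs, 5 in MEFs and 3 in each of the 6 OSKM lists. At its higher-coordinate end, chr1:91458921-91459720, a peak was listed in MEFs and in all 6 OSKM lists and not in ESCs. The score there was 200 in MEFs and in FLAG at all 3 days, and 200, 173 and 28.8 in HDAC3-YF at days 5, 9 and 13. The 2 ESC peaks of the window lay at the neighbours Ilkap and Hes6. Per2 was the only member without an ESC peak at a start or at this end, Dbp aside.

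Cry1 and Cry2 encode the cryptochromes, the other inhibitors of the loop. Cry1 (chr10:85131700-85185054, minus strand) had 3 H3K27ac peaks in ESCs, 2 in MEFs, 1, 2 and 2 in the FLAG arm and 1 at each day in the HDAC3-YF arm. Its start peak was in all 8 lists, and the second peak of MEFs and of FLAG at days 9 and 13 lay at the neighbour Mterf2, with scores of 14.8 to 23.2. Cry2 (chr2:92403646-92434085, minus strand) had 3 in ESCs, 3 in MEFs, 2, 3 and 3 in the FLAG arm and the same in the HDAC3-YF arm. One region of the Cry2 window, in Mapk8ip1, was in all 8 lists as was the start.

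Dbp (chr7:45705100-45710203, plus strand) had 5 H3K27ac peaks in ESCs, 3 in MEFs, 2, 2 and 3 in the FLAG arm and 4, 4 and 2 in the HDAC3-YF arm. A gene body region, chr7:45706555-45708044, and a region at Sphk2 and Rpl18 were in all 8 lists. The 2 peaks that HDAC3-YF had beyond FLAG at days 5 and 9 lay near the end of Rpl18, inside Sphk2, with scores of 7.07 to 7.95, and none lay in Dbp. Bcl6 (chr16:23965050-23988866, minus strand) had 3 H3K27ac peaks in MEFs and 1 in each of the other 7 lists. The 2 peaks that MEFs had in addition were at and near a downstream start, with scores of 48.3 and 9.57.

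The H3K27ac peaks of the 10 windows merged into 62 regions when peaks of the 8 lists within 1 kb were joined. Of these, 10 were at a start or at the higher-coordinate end of Per2, 26 elsewhere in a gene body or at a 3′ end and 26 in a flank, and 19 lay in or within 1 kb of an end of another protein-coding gene. Regions in all 8 lists numbered 16, or 25.8%, against 16.2% of the 49030 regions genome-wide, and 8 of the 16 were at a start. Regions of ESCs alone made up 17.7% against 21.2%, of MEFs alone 12.9% against 20.3% and of OSKM lists alone 16.1% against 19%. Regions in all lists thus made up a larger share at these genes than over all regions, while 25 of the 62 rested on 1 list. No genome-wide share is given here for regions in 1 list or for all-list regions at a start, so those numbers have no background. The genome-wide regions were not limited to gene windows, so the shares above are not matched for distance from genes or starts.

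An ESC peak for NCoR or SMRT lay in the windows of 5 members, Arntl, Clock, Per2, Cry1 and Dbp, against 38% of genes. A day 9 peak lay in those of 8, all but Cry2 and Bcl6, against 48.2%. Both populations had a peak at 5 members (24.1% of genes), day 9 alone at 3, namely Nr1d1, Nr1d2 and Per1 (24.2%), ESCs alone at none (13.9%) and neither at Cry2 and Bcl6 (37.8%). The 3 of 10 members with a peak at day 9 alone are near that background share. Bcl6, whose product recruits these co-repressors, had none listed.

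At starts the numbers were smaller. ESC co-repressor peaks lay within 1 kb of a start at 3 of 9 members, Arntl, Clock and Cry1, against 15.4% of genes, and day 9 peaks at 3, Nr1d2, Arntl and Clock, against 23.6%. Among genes with H3K27ac at the start in all 8 lists, the shares were 3 of 8 members against 33.1% for ESCs and 3 of 8 against 56.3% for day 9. Nr1d2 was the 1 member with a start peak at day 9 and not in ESCs, against 14.8% of genes, or 34.2% of genes with H3K27ac at the start in all 8 lists.

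Merging overlapping NCoR and SMRT peaks of a population gave 6 ESC sites and 12 day 9 sites in these windows. The ESC sites were 3 with both co-repressors and 3 with NCoR alone. The day 9 sites were 9 with both, 2 with NCoR alone and 1 with SMRT alone. Both co-repressors were listed at 52.7% of ESC sites and 68.1% of day 9 sites genome-wide. Every member site with both had the same interval and the same score in the 2 lists. Over the whole lists, all 2743 shared ESC intervals and all 4003 shared day 9 intervals had the same score in both. The presence of both at a site therefore cannot be read as 2 separate peak calls agreeing. Whether a site counts as NCoR alone follows a signed score that the 2 lists of a population share. In ESCs, 909 of 944 intervals in the NCoR list alone scored over 1, all 2743 in both lists lay between -1 and 1, and 1559 of 1581 in the SMRT list alone scored under -1, and the day 9 lists had the same form. The 5 member sites with NCoR alone scored 1.05 at Nr1d2, 1.08 at Dbp, 1.18 at Cry1, and 1.19 and 1.69 at Arntl, so 4 of them lay only a little above 1.

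In Nr1d1 the day 9 site for both co-repressors lay in the gene body at chr11:98774189-98774388, 1089 bp downstream of the start. The nearest H3K27ac peak centres were 1244 bp away in FLAG and 915 bp away in HDAC3-YF at day 9, and of the 8 H3K27ac lists only HDAC3-YF at day 13 had a peak overlapping the site, with a score of 6.85. The nearest ESC site was 91397 bp away. In Nr1d2 a day 9 site for both co-repressors, chr14:18238710-18238909, overlapped the H3K27ac start peak of all 8 lists. A second, NCoR alone at chr14:18239015-18239214, was centred -8 bp from the start, covered the AGGTCA shown above and overlapped no H3K27ac peak. The nearest ESC sites were 1176981 and 1176676 bp away.

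Arntl, the gene that REV-ERBs repress, had a day 9 site for both co-repressors at chr7:113207570-113207769, 158 bp downstream of the start, overlapping H3K27ac peaks of 7 lists, all but FLAG at day 13. In ESCs its start had NCoR alone at chr7:113208118-113208317, 706 bp downstream of the start and 548 bp from the day 9 site, with no overlapping H3K27ac peak. Clock was the closest match between populations. Its ESC site, chr5:76304856-76305055, and its day 9 site, chr5:76304848-76305047, both had both co-repressors, and their centres were 8 bp apart. The nearest H3K27ac centres of the 8 lists were 289 to 474 bp from these Clock sites, and none overlapped.

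Cry1 had ESC NCoR alone at its start, chr10:85184759-85184958, and at day 9 a site for both at Mterf2 and SMRT alone in the gene body at chr10:85144874-85145073, with a score of -2.17. Per2 had the most day 9 sites, 3, at Ilkap, at Hes6 and at its own higher-coordinate end, chr1:91459031-91459230. The last overlapped H3K27ac of MEFs and of FLAG at days 9 and 13, and the nearest ESC H3K27ac centre was 35855 bp away. The Ilkap site overlapped the ESC site of the Per2 window. The day 9 site of Per1 lay at Vamp2, and the sites of Dbp lay at Ntn5 and Sec1 in ESCs and at Sphk2 and Rpl18 at day 9.

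Of the 6 ESC sites, 1 overlapped an ESC H3K27ac peak, against 36.3% of ESC sites genome-wide, and 5 had one centred within 1 kb, against 68.1%. Of the 12 day 9 sites, 4 overlapped H3K27ac of FLAG at day 9 (48.5%), 4 that of HDAC3-YF at day 9 (47.9%) and 7 that of MEFs (48.8%), and 10 had a FLAG day 9 centre within 1 kb, against 85.9%. A site of the other population was overlapped by 2 of the 6 ESC sites, against 22.5% of ESC sites genome-wide, and by 2 of the 12 day 9 sites, against 19.8%. These were the sites of Clock and of Ilkap in the Per2 window.

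HDAC3-YF and FLAG were compared at the same day, 1 culture against 1. At day 5 HDAC3-YF had more H3K27ac peaks at 3 members, Nr1d1, Arntl and Dbp (18.5% of genes), fewer at 2 (14.4%) and the same number at 5 (67.1%). At day 9 it had more at 3, Nr1d2, Per1 and Dbp (14%), fewer at 2, Arntl and Cry1 (19.5%), and the same at 5 (66.5%). At day 13 it had more at 1, Nr1d1 (20.2%), fewer at 4, Arntl, Per1, Cry1 and Dbp (21.4%), and the same at 5 (58.4%). The median difference was 0 at each day over members and over all genes, and the mean was 0.7, 0.2 and -0.6 peaks over members against 0.0656, -0.0813 and -0.0347 over all genes. Nr1d1 alone gave 5 of the net 7 peaks of day 5. No member had more peaks in HDAC3-YF at all 3 days, and none had fewer at all 3. The share of all genes with either pattern is not given here, so this has no background.

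With no replicates, the span of the FLAG counts over the 3 days was set beside each difference as a yardstick, and it is not a replicate error. A difference exceeded that span at 1 day or more at 3 members, against 27% of genes, which is near the background. For Nr1d1 the differences were 5, 0 and 1 against a span of 1, for Arntl 3, -1 and -3 against 2, and for Dbp 2, 2 and -1 against 1. Nr1d1 exceeded its span under each of the 4 other settings tried on the H3K27ac counts, by its day 13 value of -2 with the top 50% of each list. With 5 kb flanks and with the top 50% its span was 0, so any difference exceeded it. Arntl did not with 5 kb flanks (2, -1 and -2 against 2) or with the top 50% (1, -1 and -1 against 1). Dbp did not with merged peaks (1, 1 and -1 against 1) or with equal numbers of peaks (0, 1 and -1 against 1), and with the top 50% only day 13 did, at -1 against 0. Per1 stayed within its span with 20 kb flanks (-2, 1 and -2 against 2). It exceeded a span of 1 with 5 kb flanks (0, 2 and -1), with equal numbers of peaks (-1, 1 and -2) and with the top 50% (2, 0 and -1). The 4 members Clock, Per2, Cry2 and Bcl6 had equal counts in both arms at all 3 days, against 34% of genes. The day 5 difference of 5 peaks at Nr1d1 was reached by 9 genes, or 0.0537%, and Thra, whose window overlaps that of Nr1d1, was among them. At the same day the HDAC3-YF list was longer, 16944 against 15645 peaks, and the fibroblast markers had 16 peaks in HDAC3-YF, at 4 of 6 genes, against 9 in FLAG, at 5 of 6. The part of either in the Nr1d1 count was not tested. Counting only the higher-scoring 50% of each list, Nr1d1 had 2 peaks in each arm at day 5, and with 5 kb flanks it had 3 in HDAC3-YF against 1. Of these 3, those other than the start peak lay in Thra, with scores of 7.92 and 11.8. A difference of 3 peaks or more at day 5 was found at 2 members, Nr1d1 and Arntl, against 0.787% of genes, and a deficit of 3 or more at day 13 at 1 member, Arntl, against 1.25%. These shares are not matched for number of peaks. At day 5 the median window held 2.5 FLAG and 3 HDAC3-YF peaks over members, against 1 in each list over all genes. With equal numbers of peaks Nr1d1 and Arntl had 2 and 1 more at day 5, with the top 50% 0 and 1, and with 5 kb flanks 2 each, so neither reached 3 under those settings.

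**Figure D4:**
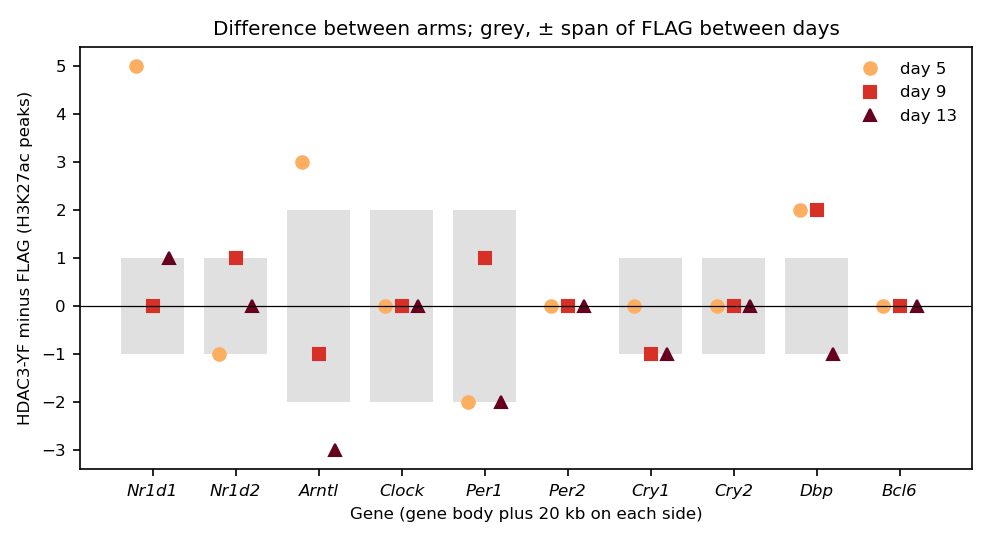
H3K27ac peaks in HDAC3-YF minus FLAG in each member's window at days 5, 9 and 13, in numbers of peaks, with the span of the FLAG counts over the days as a grey band on either side of 0. Nr1d1 at day 5, Arntl at days 5 and 13 and Dbp at days 5 and 9 lie outside the band, and Clock, Per2, Cry2 and Bcl6 lie at 0 throughout.

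A further 22 clock genes, not members, were counted in the same way. Shares over all genes with a peak follow in brackets. ESCs had more H3K27ac peaks than MEFs at 5 of the 22 (36.2%), fewer at 11 (29.7%) and the same number at 6 (34.1%). Among those with fewer were Rora, a receptor that binds the same elements as the REV-ERBs and activates from them, with 5 against 10, Nfil3, a D-box repressor, with 2 against 5, and Npas2, a paralogue of Clock, with 3 against 5. Btrc, a ligase subunit that acts on PER proteins, had 4 against 1. HDAC3-YF had more than FLAG at 4, 1 and 6 of the 22 genes at days 5, 9 and 13 (18.5%, 14% and 20.2%). It had fewer at 4, 7 and 5 (14.4%, 19.5% and 21.4%). Co-repressor peaks lay in the windows of 7 genes in ESCs (38%) and 11 at day 9 (48.2%), with 4 in both (24.1%). Per3, the remaining Period gene, had H3K27ac counts of 2 in every list, with 1 NCoR and 2 SMRT peaks in ESCs and 2 of each at day 9. Rora had the same 4 co-repressor counts as Per3.

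Genes whose windows overlap that of the REV-ERB gene were left out of this comparison, Thra among them for Nr1d1. Among the rest, the genes whose 12 counts were most like those of Nr1d1 were Rnf39, with a summed absolute difference of 6 peaks over the 12 lists, and Chd3 and Elmo1, with 7 each. For Nr1d2 they were Cmpk2, Gm52215 and Mettl25, each 1 peak apart, with 6 of 21880 genes at that distance or less. None of the 21878 genes compared had exactly the counts of Nr1d1, and the nearest of them, Rnf39, had 3 peaks in HDAC3-YF at day 5 where Nr1d1 had 8.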

How the data were processed

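Each group had 1 library, assigned by its title. The deposited lists hold 200 bp peaks with a score per peak, and the authors' scale for that score is not stated. Per the submitters' processing notes, reads were aligned with Bowtie2 2.2.0 and peaks called with MACS 1.4 on mm10. Settings, and how peaks became 200 bp wide, are not stated by the sources used here, and the input of ESCs was not analysed here.

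With Python 3.11.15 and pandas 2.3.3, peaks touching a gene body plus 20 kb on each side by at least 1 bp were counted for 21883 protein-coding genes of the RefSeq GRCm38.p6 table. Background shares use the 16774 genes with at least 1 H3K27ac peak and are not matched for window length or number of peaks. Starts and sequences came from the RefSeq promoter table, in which 9 of 10 members were found, and exons were not used here. Counting and merging were tested on simulated data. All members are described. Other clock genes were eligible for naming where ESCs and MEFs differed by at least 2 peaks or a co-repressor peak was listed, and 3 genes most alike were named for each REV-ERB gene. The members and lists were chosen with earlier results of these data known. The alternatives were 5 kb flanks, lists cut to an equal number or to their top 50%, merged peaks and other overlap rules.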

Additional observations from a re-analysis of the deposited data

Results flagged for a closer look

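In 4 members the sign of HDAC3-YF minus FLAG, in H3K27ac peaks, was opposite at different days, with 1 culture per arm and day, and none of these differences between days was tested. The share of all genes with opposite signs at different days was not counted, so this number of members has no background here. Arntl had 3 peaks more at day 5, 1 fewer at day 9 and 3 fewer at day 13, so that day 5 minus day 9 was 4 and day 5 minus day 13 was 6. For Per1, with 2 fewer, 1 more and 2 fewer, day 5 minus day 9 was -3 and day 9 minus day 13 was 3. Dbp, with 2 more at days 5 and 9 and 1 fewer at day 13, gave 3 for day 5 minus day 13 and 3 for day 9 minus day 13, from peaks in the neighbours of Dbp. For Nr1d2, with 1 fewer and then 1 more, day 5 minus day 9 was -2, and both peaks lay in 1 merged region.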

How the results depend on the processing

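No paired analysis was possible because each group had 1 library and no test was made. Of 71 values over the 10 members, 39 kept theirs within 1.5 times, and the other 32 follow as numbers of members unless stated. With lists cut to 14251 peaks each, ESCs had more peaks than MEFs at 2 in place of 4, HDAC3-YF more than FLAG at day 9 at 5 in place of 3 and fewer at 1 in place of 2. FLAG against MEFs then had more at 4, 4 and 3 at days 5, 9 and 13, and fewer at 3 at days 5 and 13. With the top 50% of each list, ESCs had more than MEFs at 2, HDAC3-YF fewer than FLAG at 1 at day 5, and more at 0 and fewer at 1 at day 9. FLAG against MEFs then had more at 1 at days 5 and 13, and fewer at 4, 3 and 3. With 5 kb flanks ESCs had fewer than MEFs at 2, HDAC3-YF fewer than FLAG at 1 at day 5, and FLAG at day 13 fewer than MEFs at 3. With merged peaks HDAC3-YF had more than FLAG at 0 at day 13. Co-repressor peaks lay at 3 members in ESCs with 5 kb flanks and at 3 when both co-repressors were required, and within 1 kb of an annotated gene end at 2 in ESCs and 3 at day 9. ESC sites with ESC H3K27ac numbered 5 by centres within 1 kb and 0 of 3 with 5 kb flanks. Day 9 sites numbered 10 by centres within 1 kb in each arm, and with 50% overlap 2 in FLAG and 1 in HDAC3-YF, and with 5 kb flanks 2 of 9 in HDAC3-YF. Signs turned at single genes. With equal numbers, Dbp in ESCs minus MEFs became -1, Arntl at day 9 in HDAC3-YF minus FLAG 1, and FLAG minus MEFs became 1 and 2 for Nr1d1 and Arntl at day 5, 1 for Nr1d1 at day 9 and 3 for Arntl at day 13. With the top 50%, HDAC3-YF minus FLAG became 2 for Per1 at day 5 and -2 for Nr1d1 at day 13. The cause was not tested. Read depth is unknown, so an unlisted peak sets no limit.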
